A study of Mus musculus with 4 samples.

Results

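The 10 genes described here, Pdrg1, Igfn1, Sowaha, Tmem200b, Muc3a, Plk5, Irgc1, Agmat, Qrfpr and Stac2, were taken by symbol from the 19465 genes listed for a spatial study of the mouse brain. They had been picked for their difference between rNLS8 and control sections in earlier results of these same data, under the working name of changes that do not depend on the region. Their rNLS8 against control values are therefore given as a description with no test, and the question tested is whether that change had the same size in each region. The direction held in every region where the groups were apart. A joint test over the regions called the size of the change different for Plk5, Sowaha and Igfn1. These calls depended on single sections and, for Sowaha and Igfn1, on how the regions were drawn.

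Visium spatial gene expression, in which probes bound to RNA are captured on an array of barcoded spots, was run on formalin-fixed, paraffin-embedded brain sections of rNLS8 mice (2 sections) and control mice (2 sections), each 5 µm thick. rNLS8 mice carry a human TDP-43 transgene without a working nuclear import signal, driven in neurons through a tetracycline-controlled activator under the neurofilament heavy chain promoter and held off by doxycycline (Dox). Both groups are labelled with Dox withdrawal, an age of 11 weeks and sampling 3 weeks after Dox was removed, the genotype of the control group is given only as control, and each group has 1 section labelled female and 1 labelled male. The rNLS8 section labelled female held Y-linked counts at 136.7 CPM (counts scaled to a common section total), near the 139.1 CPM of the rNLS8 section labelled male, whereas the control sections had 0 CPM (female) and 107.3 CPM (male). By these counts sex is not balanced between the groups, and its part in the values below was not tested. A wrong label cannot be told apart from a wrong section. That the rNLS8 sections came from separate animals is therefore not established, and p-values cover no more than the spread among these sections.

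The sections held 28056089 and 17627577 unique molecular identifiers (UMI, 1 per captured molecule) in rNLS8 replicates 1 and 2, and 19064969 and 23869254 in control replicates 1 and 2. A spot covers several cells, so regions were groups of spots named from marker genes, and UMI were summed per section and region. The 7 regions with enough spots in every section were cortex, claustrum and endopiriform, striatum, septum, fibre tracts, meninges and an astrocyte-rich surface. The cortex held 719 and 821 spots in rNLS8 sections and 812 and 640 in control sections. Of these, 131 and 416 in rNLS8 sections and 21 and 5 in control sections came from a cluster led by immune genes. The values given for the cortex include this cluster unless stated. The septum, the smallest, held 127 and 56 spots in rNLS8 sections and 96 and 83 in control sections. The striatum joined a main cluster and a smaller one. In rNLS8 replicate 2 the main one gave 34 spots and the smaller one 227. In the other sections the smaller one gave 3 (rNLS8 replicate 1), 2 and 1 spots (control replicates 1 and 2). The part of this in the striatal values was not tested. The meninges likewise joined a cluster at a median of 5315 UMI per spot and one at 3095.5. The latter gave 103 and 83 spots in rNLS8 sections and 149 and 73 in control sections. Its part in the meningeal values was not tested. Levels are CPM after trimmed-mean scaling, as mean ± SD over n = 2 sections per group, and are compared within a gene only, since probes of different genes need not capture alike. In whole sections the 8 upper-layer cortical markers summed to 537 and 397 CPM in rNLS8 sections against 1002 and 947 CPM in control sections, and the 7 microglial markers to 550 and 819 CPM against 348 and 426 CPM. Beyond a run with the same mix of regions in each section, given with the alternatives, the part of these shifts in the members' values was not tested. Fewer cells of a type cannot be told apart from less RNA per cell.

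The members share no pathway. Pdrg1 encodes a subunit of the prefoldin-like module that works with the R2TP co-chaperone to assemble RNA polymerases and other large complexes, as worked out mainly for the human proteins. Stac2 encodes an adaptor that binds L-type calcium channels. Plk5 is a brain-expressed member of the polo-like kinases, tied to neurite growth in rodent neurons, and Qrfpr is the receptor of the RFamide peptide QRFP. Agmat encodes agmatinase, which turns agmatine into the polyamine putrescine, and Irgc1 belongs to the immunity-related GTPases but is known from testis. Igfn1 encodes a muscle protein with immunoglobulin-like and fibronectin domains that binds the elongation factor Eef1a2 in mouse, Muc3a a membrane mucin known from the intestine, and Sowaha an ankyrin-repeat protein. Tmem200b encodes a transmembrane protein.

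In RefSeq's promoter table for GRCm38.p6 (250 bases before to 50 after a gene's start), 6 of the 10 members had an entry, 7 promoters in all. The 3 shown belong to the member that was higher throughout the regions (Pdrg1) and to 2 whose change was called different in size between regions (Igfn1, Plk5). Capitals mark the GC box GGGCGG and the CCAAT box on either strand, so that CCGCCC is a GC box read on the other strand. The positions are chr2:153015334-153015633 on the minus strand for Pdrg1, chr1:136006293-136006592 on the minus strand for Igfn1, and chr10:80356209-80356508 on the plus strand for Plk5.

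Pdrg1: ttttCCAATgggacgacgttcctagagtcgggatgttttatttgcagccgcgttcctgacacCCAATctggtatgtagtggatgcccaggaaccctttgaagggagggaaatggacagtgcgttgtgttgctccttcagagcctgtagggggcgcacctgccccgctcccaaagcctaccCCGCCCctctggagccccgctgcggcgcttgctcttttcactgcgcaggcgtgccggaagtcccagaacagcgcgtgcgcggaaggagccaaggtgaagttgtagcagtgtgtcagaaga
Igfn1: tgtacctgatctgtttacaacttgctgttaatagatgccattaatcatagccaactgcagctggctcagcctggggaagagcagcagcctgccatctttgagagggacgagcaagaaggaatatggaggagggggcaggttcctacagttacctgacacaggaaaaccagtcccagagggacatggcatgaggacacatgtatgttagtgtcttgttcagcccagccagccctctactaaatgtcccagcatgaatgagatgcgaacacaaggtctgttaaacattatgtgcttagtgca
Plk5: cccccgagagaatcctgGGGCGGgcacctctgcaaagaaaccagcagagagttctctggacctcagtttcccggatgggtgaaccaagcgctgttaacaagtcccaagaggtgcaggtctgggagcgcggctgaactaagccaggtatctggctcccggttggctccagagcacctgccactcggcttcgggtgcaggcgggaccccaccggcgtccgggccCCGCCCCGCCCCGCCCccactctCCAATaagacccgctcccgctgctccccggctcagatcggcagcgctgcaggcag

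The Pdrg1 promoter held 1 GC box, 2 CCAAT boxes and 19 CpG pairs, and that of Plk5 4 GC boxes, 3 of them in an overlapping run, 1 CCAAT box and 21 CpG pairs. The Igfn1 window held neither box and 2 CpG pairs. The windows of Pdrg1 and Igfn1 lie within the span annotated for each gene, and that of Plk5 crosses its annotated start. Over all 32851 promoters of the table, 35.7% held a GC box and 37.4% a CCAAT box, and the median promoter had 7 CpG pairs. The TATA box TATAAA (13.6% of all promoters), the E-box CACGTG (7.15%), the AP-1 site TGANTCA (7.81%) and the cAMP response element TGACGTCA (1.79%) were searched on both strands too. None of these 4 lay in any of the 7 windows.

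Pdrg1 (chromosome 2, 153008890 to 153016019 in GRCm38.p6) had 357 and 405 CPM in rNLS8 sections, against 124 and 123 CPM in control sections. The control sections differed by under 1 CPM and the lower rNLS8 section lay far above both. The means were 381 ± 33.9 CPM in rNLS8 and 124 ± 0.639 CPM in control, a log2 fold change of 1.62 (standard error, SE, 0.145). Stac2 (chromosome 11, 98036623 to 98053462) was the other higher member, with 337 and 479 CPM in rNLS8 sections against 226 and 198 CPM in control sections and a log2 fold change of 0.94 (SE 0.209). Its rNLS8 sections differed from each other by more than the lower one differed from the control sections.

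Igfn1 (chromosome 1, 135953205 to 136040925) had 8.70 and 7.62 CPM in rNLS8 sections, against 50.9 and 40.0 CPM in control sections, a log2 fold change of -2.48 (SE 0.197). Both rNLS8 values lay well under the lower control value. Sowaha (chromosome 11, 53476578 to 53480195) had 124 and 76.9 CPM in rNLS8 sections against 280 and 316 CPM in control sections (log2 fold change -1.57, SE 0.242). Here rNLS8 replicate 2 was the lowest section. Plk5 (chromosome 10, 80356459 to 80365489) had the same order of sections within rNLS8, with 37.9 and 21.9 CPM against 113 and 86.1 CPM in control sections (-1.73, SE 0.286).

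Tmem200b (chromosome 4, 131919971 to 131923956) had 37.6 and 32.1 CPM in rNLS8 sections against 92.8 and 94.3 CPM in control sections (log2 fold change -1.43, SE 0.147). Muc3a (chromosome 5, 137208805 to 137212545) had 11.1 and 7.94 CPM in rNLS8 sections against 35.2 and 34.5 CPM in control sections (-1.87, SE 0.211). In both genes the control sections lay close together and well above either rNLS8 section.

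The other members were captured rarely. Irgc1 had 15 and 18 UMI in rNLS8 sections against 90 and 135 UMI in control sections, a log2 fold change of -2.90 (SE 0.416). Agmat had 25 and 16 UMI in rNLS8 sections against 93 and 57 UMI in control sections (-2.15, SE 0.495, and -1.48 without control replicate 1). The control sections of Agmat lay far apart (5.30 and 2.41 CPM), while the rNLS8 sections had 0.863 and 0.858 CPM. Qrfpr had 46 and 16 UMI in rNLS8 sections against 94 and 126 UMI in control sections (-2.10, SE 0.388).

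All 10 members passed the filter on low counts in whole sections, and in each of them the rNLS8 and control sections did not overlap, 2 with rNLS8 higher and 8 with rNLS8 lower. Of all 13444 genes tested, 27.1% had both rNLS8 sections above both control sections and 25.1% had both below. A log2 fold change of 1 or more was reached by 2.74% of genes and of -1 or less by 1.94%. The members were chosen on this contrast, so nothing is read from their count against these shares. The median log2 fold change over all genes was 0.02.

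**Figure D1:**
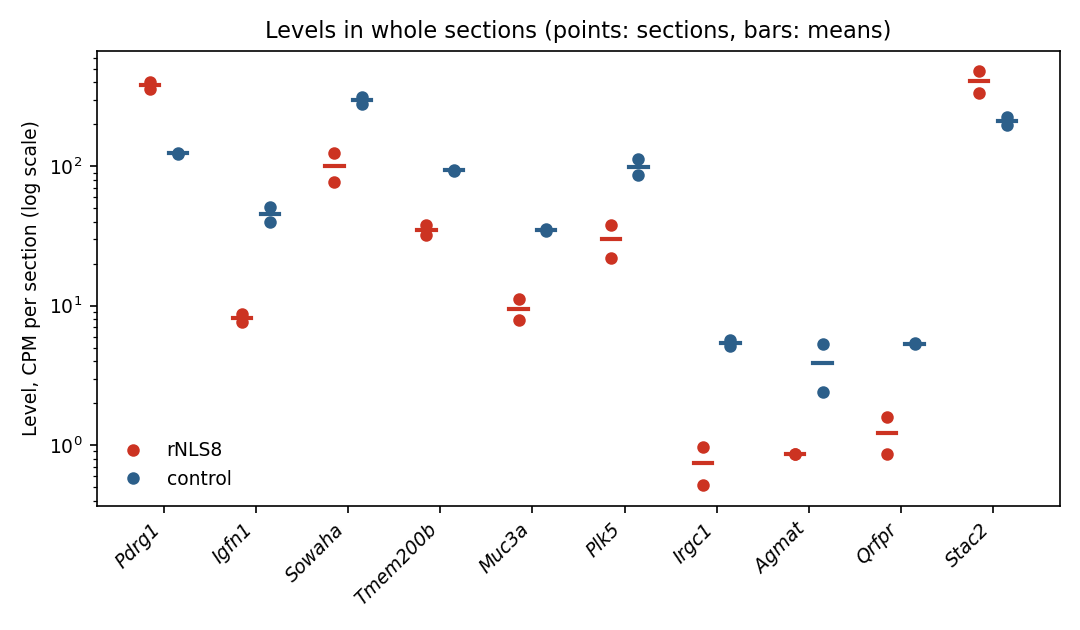
Level of each member in CPM (log axis) in the 2 rNLS8 sections (red, left) and the 2 control sections (blue, right), with each point a section and each bar a group mean. Pdrg1 and Stac2 lie higher in rNLS8 and the other 8 genes lower, with no overlap of the groups.

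Wherever the groups were apart in a region, the same 2 members stood higher in rNLS8 and the same 8 lower. Of the 70 pairs of a member and a region, rNLS8 and control sections were apart in the member's own direction in 62 and overlapped in 8, and in 0 pairs were they apart the other way. The filter on low counts was passed by 51 pairs, 49 of them apart in the member's direction. In single regions, 19.2% (septum) to 29.2% (cortex) of the genes tested had both rNLS8 sections above, and 19.7% (meninges) to 26.2% (cortex) both below, with 20.1% below in the septum and 24.2% in the striatum. Of the 7422 genes that passed the filter in all 7 regions, 2.55% were above in every region and 3.84% below in every region. Among the 5 members that passed in all 7 (Pdrg1, Sowaha, Tmem200b, Plk5, Stac2), Pdrg1 was above in every region, Sowaha and Tmem200b were below in every region, and Plk5 and Stac2 overlapped in the septum. The same contrast chose the members, so these counts describe them only.

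Pdrg1 in the cortex had 370 and 445 CPM in rNLS8 sections against 111 and 105 CPM in control sections, a log2 fold change of 1.92 (SE 0.16). The astrocyte-rich surface had 332 and 437 CPM against 91.9 and 117 CPM (1.87, SE 0.23), and the striatum 445 and 380 CPM against 136 and 135 CPM (1.62, SE 0.16). The septum had the smallest fold, with 255 and 278 CPM in rNLS8 sections against 110 and 105 CPM in control sections (1.32, SE 0.24). The folds in meninges (1.58), claustrum and endopiriform (1.54) and fibre tracts (1.40) lay between. Control levels of Pdrg1 spanned 91.9 to 157 CPM and rNLS8 levels 255 to 469 CPM over the 7 regions, so the lowest rNLS8 regional value stood above the highest control one.

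Igfn1 had its highest level in the claustrum and endopiriform, with 31.7 and 24.6 CPM in rNLS8 sections against 143 and 105 CPM in control sections (log2 fold change -2.09, SE 0.23). The cortex had 7.21 and 6.42 CPM in rNLS8 sections against 58.6 and 64.1 CPM in control sections (-3.17, SE 0.19), and the meninges 6.78 and 5.19 CPM against 102 and 59.1 CPM (-3.71, SE 0.41). The excitatory neuron marker Slc17a7 was at 1779 and 2199 CPM in the meninges of rNLS8 sections against 3322 and 1851 CPM in control sections, and its part in the meningeal value was not tested. The striatum had the smallest fold, 7.19 and 5.11 CPM in rNLS8 sections against 27.0 and 13.8 CPM in control sections (-1.63, SE 0.39). In rNLS8 sections the cortical and striatal levels of Igfn1 lay close together, while in control sections both cortical values lay above both striatal ones. In the septum Igfn1 rested on 4 and 0 UMI in rNLS8 sections against 16 and 7 UMI in control sections and did not pass the filter.

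Plk5 had a log2 fold change of -2.36 (SE 0.22) in the cortex, where rNLS8 sections had 19.95 and 13.2 CPM against 88.8 and 82.3 CPM in control sections. In the striatum rNLS8 sections had 53.3 and 46.9 CPM against 147 and 95.2 CPM in control sections (-1.25, SE 0.23). In the septum the groups overlapped, with 35.5 and 31.7 CPM in rNLS8 sections against 57.3 and 27.5 CPM in control sections (-0.28, SE 0.41, and 0.31 without control replicate 1). The order of the regions also differed between groups: the cortex held the lowest mean level of Plk5 in rNLS8 sections, below the septum, whereas in control sections both cortical values lay above both septal ones. The remaining folds were -1.94 in the astrocyte-rich surface, -1.90 in meninges, -1.60 in claustrum and endopiriform and -1.23 in fibre tracts. Without rNLS8 replicate 1 the astrocyte-rich surface was at -2.65 and the fibre tracts at -1.88, and without rNLS8 replicate 2 the astrocyte-rich surface was at -1.32.

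Sowaha in the striatum, its highest region in control sections, had 176 and 159 CPM in rNLS8 sections against 431 and 467 CPM in control sections (log2 fold change -1.41, SE 0.16). The cortex had 60.7 and 55.4 CPM against 188 and 193 CPM (-1.72, SE 0.15). The septum again had the smallest fold, 208 and 149 CPM in rNLS8 sections against 226 and 352 CPM in control sections (-0.67, SE 0.27). There the nearest sections of the groups were 208 and 226 CPM, and the value was -0.28 without control replicate 2. In rNLS8 sections the septum held the highest mean level of Sowaha, just above the striatum. In the other 6 regions the folds of Sowaha lay between -1.77 and -1.40.

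**Figure D2:**
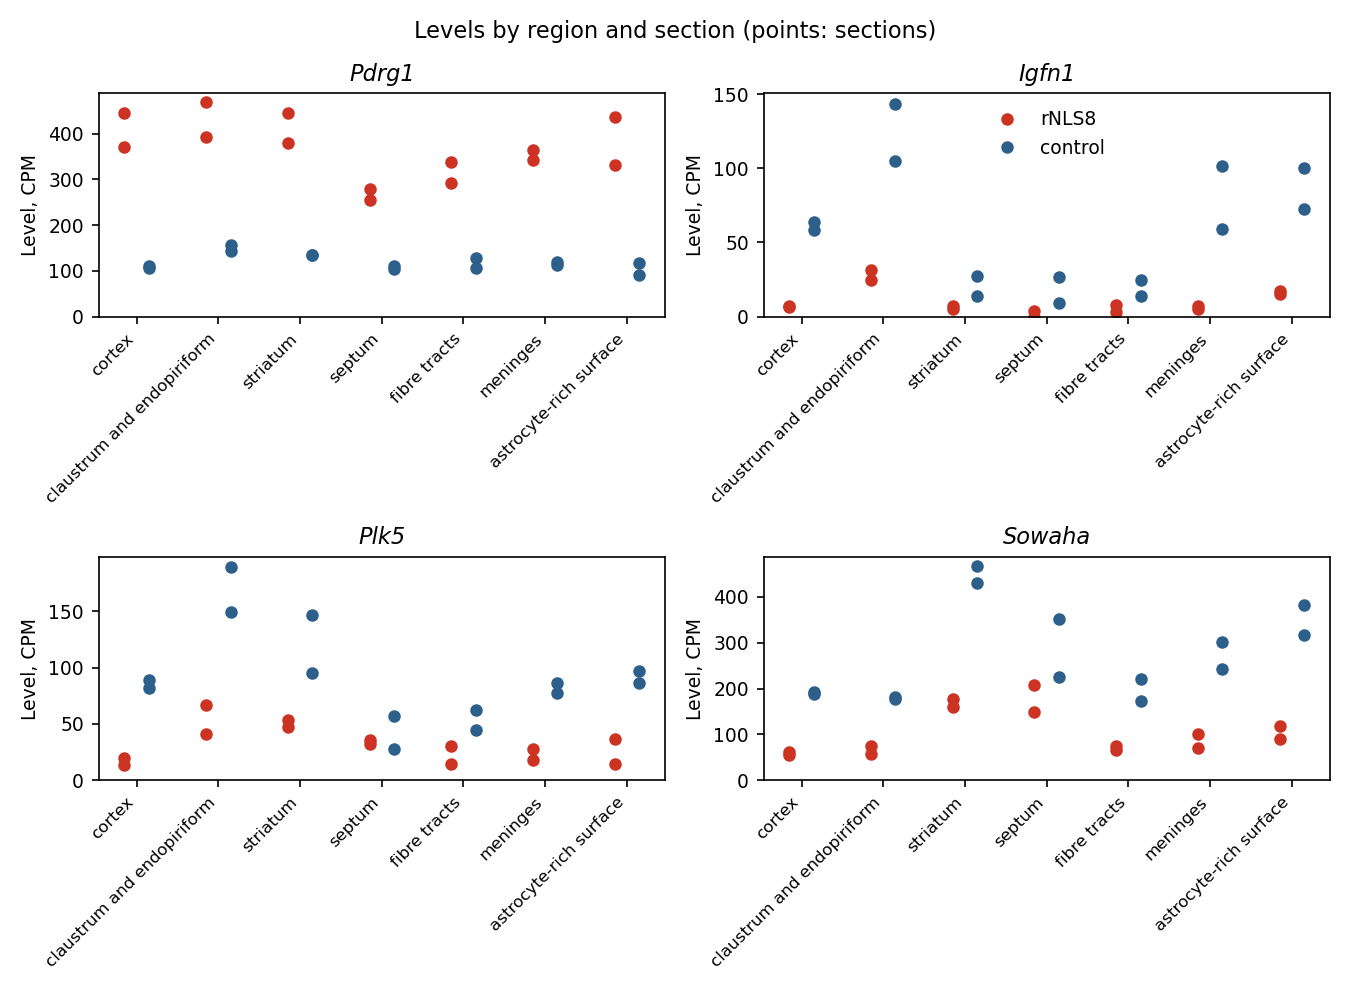
Level in CPM of Pdrg1, Igfn1, Plk5 and Sowaha in each of the 7 regions, with 1 point per section, rNLS8 in red on the left and control in blue on the right. Pdrg1 is higher in rNLS8 everywhere, while Plk5 overlaps between groups in the septum and Sowaha lies closest there (208 against 226 CPM).

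Tmem200b in the striatum, its highest region in control sections, had 62.3 and 63.6 CPM in rNLS8 sections against 181 and 166 CPM in control sections (log2 fold change -1.45, SE 0.16). In rNLS8 sections the meninges, at 52.5 and 80.5 CPM, lay about level with it. Its smallest fold was in the claustrum and endopiriform, 20.8 and 24.6 CPM in rNLS8 sections against 35.0 and 31.1 CPM in control sections (-0.54, SE 0.27). Muc3a ranged from -2.12 (SE 0.23) in the cortex, 7.45 and 6.16 CPM in rNLS8 sections against 32.3 and 27.0 CPM in control sections, to -0.94 (SE 0.50) in the septum. The septal value rested on 20 and 3 UMI in rNLS8 sections against 17 and 20 UMI in control sections, and was -1.84 without rNLS8 replicate 1. Stac2 had its largest fold in the fibre tracts, 385 and 479 CPM in rNLS8 sections against 193 and 171 CPM in control sections (1.23, SE 0.18). In the septum the groups of Stac2 overlapped, with 192 and 303 CPM in rNLS8 sections against 99.5 and 311 CPM in control sections (0.24, SE 0.40). This septal value had the other sign without rNLS8 replicate 2 (-0.13) or control replicate 1 (-0.37), and was 1.28 without control replicate 2.

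Irgc1, Agmat and Qrfpr could be measured mainly in the cortex. There Irgc1 had 6 and 10 UMI in rNLS8 sections against 49 and 76 UMI in control sections (log2 fold change -3.34, SE 0.42). Agmat had 2 and 7 UMI against 50 and 29 UMI (-3.53, SE 0.65), which was -2.85 without rNLS8 replicate 1 and -4.71 without rNLS8 replicate 2. Qrfpr had 6 and 8 UMI against 23 and 46 UMI (-2.67, SE 0.49). Qrfpr also passed the filter in the claustrum and endopiriform, with 8 and 0 UMI in rNLS8 sections against 28 and 25 UMI in control sections (-2.80, SE 0.62). That value was -2.15 without rNLS8 replicate 2 and -1.33 with regions from marker scores, in which each spot goes to its highest marker score in place of its cluster. Without rNLS8 replicate 1 the remaining rNLS8 section is at 0 UMI, so the fitted value (-7.61) depends on the prior count. In the astrocyte-rich surface Qrfpr had 0 UMI in both rNLS8 sections against 5 and 3 UMI in control sections. With 0 read as 3 counts per section and the control counts taken as exact, that is at least 1.97-fold lower. Of the 7 regions, Agmat overlapped between groups in 4 and Qrfpr in 2, all below the filter, so no change was detectable there at this depth.

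**Figure D3:**
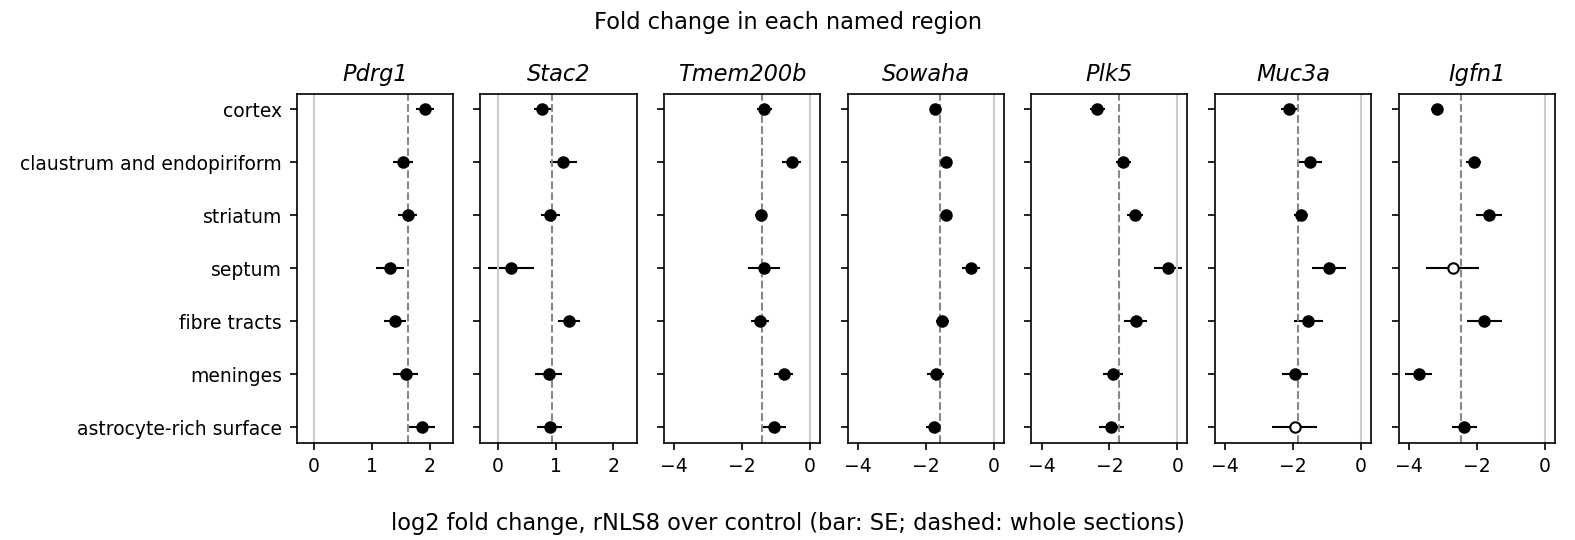
log2 fold change of rNLS8 over control with its SE in each region for the 7 members that passed the count filter in at least 6 regions, where open circles mark values below the filter and dashed lines the whole-section value. Pdrg1 and Stac2 lie right of 0 and the others left of it, and the septum is nearest to 0 for Pdrg1, Stac2, Sowaha, Plk5 and Muc3a.

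The place of the septum depended on how it was drawn and on single sections. With regions from marker scores it was nearest to 0 for Stac2 (0.65) and no longer for Pdrg1 (1.63), Sowaha (-1.37), Plk5 (-1.41) or Muc3a (-1.45). With clusters, Muc3a was nearer to 0 in the fibre tracts (-1.10) than in the septum (-1.84) without rNLS8 replicate 1, and Stac2 had its septal value (1.28) above that of every other region without control replicate 2.

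The difference of the rNLS8 effect between cortical and all other spots was tested in edgeR's quasi-likelihood model on 8 sums with the section as a block, with Benjamini-Hochberg adjustment over 12926 genes. It called 47 genes (0.364%), and 1 of the 10 members. Plk5 had 20.5 and 13.5 CPM in cortical spots of rNLS8 sections against 93.3 and 84.6 CPM in control sections, and 43.8 and 27.2 CPM in other spots of rNLS8 sections against 120 and 85.1 CPM in control sections. Its log2 fold change was lower in the cortex by 0.88 (cortex minus other -0.88, SE 0.149, 95% interval -1.19 to -0.56, edgeR adjusted p = 0.0109). This call was lost without control replicate 2 (-0.69, edgeR adjusted p = 0.117). It was also lost when 1 cortical cluster led by immune genes was left out of the cortex (-0.76, edgeR adjusted p = 0.318). That cluster held 131 and 416 spots in rNLS8 sections against 21 and 5 in control sections. Without it 0 genes were called in all.

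For the other members the difference did not pass, and its interval bounds what the data allow. Igfn1 had a cortex minus other difference of -1.09 (95% interval -1.60 to -0.58, edgeR adjusted p = 0.0617) and Agmat one of -2.26 (-3.59 to -0.92, edgeR adjusted p = 0.148). Pdrg1 had 0.40 (0.18 to 0.61, edgeR adjusted p = 0.102). The differences of Tmem200b, 0.02 (-0.33 to 0.37, edgeR adjusted p = 0.985), Sowaha, -0.22 (-0.51 to 0.07, 0.644), Stac2, -0.23 (-0.49 to 0.04, 0.572), and Muc3a, -0.38 (-0.82 to 0.06, 0.572), had intervals that include 0. Those of Irgc1, -0.85 (-2.05 to 0.35, 0.671), and Qrfpr, -0.81 (-2.08 to 0.47, 0.712), were wide. Unadjusted p under 0.05 was reached by 1295 genes over the table.

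**Figure D4:**
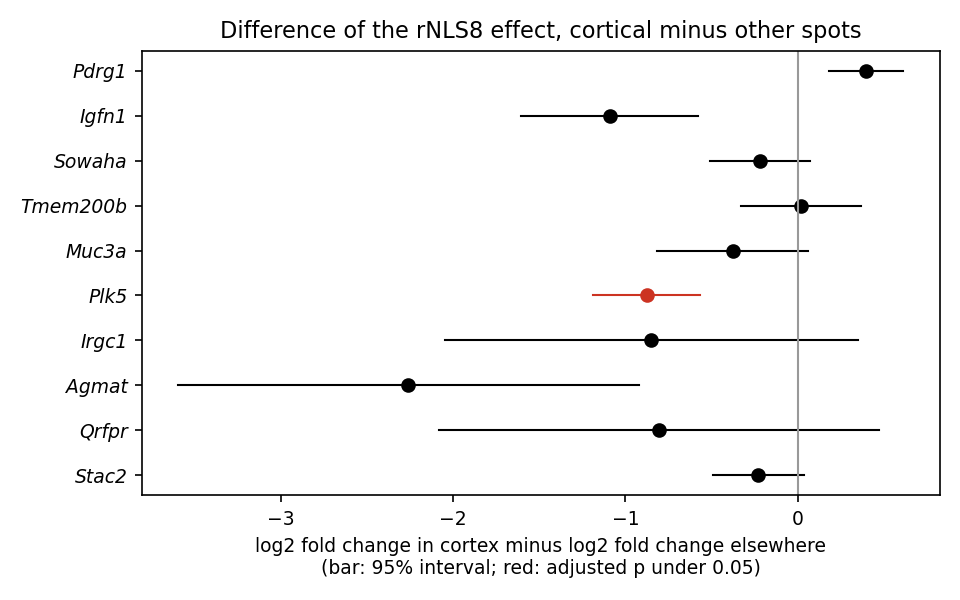
Difference of the log2 fold change (rNLS8 over control) in cortical spots minus that in all other spots for each member, with its 95% interval, in red where the adjusted p is under 0.05. Plk5 (-0.88) passed, and the intervals of Pdrg1, Igfn1 and Agmat leave out 0 without passing over all genes.

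The joint test of all region terms asked whether the change was equal over the 7 regions. edgeR's quasi-likelihood F test called 142 of 11022 genes (1.29%), among them 3 of the 9 members it could test: Plk5 (adjusted p = 0.00198), Sowaha (adjusted p = 0.00494) and Igfn1 (adjusted p = 0.0254). Agmat did not pass this fit's filter. Pdrg1 (0.272), Stac2 (0.292), Tmem200b (0.362), Qrfpr (0.489), Muc3a (0.575) and Irgc1 (0.619) did not pass by the same edgeR adjusted p. For Pdrg1 the intervals of single regions against the cortex bound the difference. They ran from -0.95 to -0.19 in the septum, -0.82 to -0.14 in fibre tracts and -0.68 to -0.09 in claustrum and endopiriform. The striatum had -0.54 to -6.8e-04, the meninges -0.62 to 0.07 and the astrocyte-rich surface -0.44 to 0.38. No single region passed for Pdrg1 by edgeR adjusted p (lowest 0.124, in the septum).

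Region by region against the cortex in the same model, the log2 fold change of Plk5 was nearer to 0 in the septum, by 2.03 (95% interval 1.31 to 2.74, edgeR adjusted p = 7.0e-04), and in the striatum, by 1.10 (0.69 to 1.501, edgeR adjusted p = 0.00204). That of Sowaha was nearer to 0 in the septum by 1.07 (0.72 to 1.42, edgeR adjusted p = 2.1e-04), and that of Igfn1 in the striatum by 1.57 (0.85 to 2.29, edgeR adjusted p = 0.0173). Most striatal spots of rNLS8 replicate 2 came from the smaller striatal cluster. Without that section the striatal folds were -1.49 for Igfn1 and -1.19 for Plk5, and the cortical folds -3.09 and -2.10. The call for Sowaha over all regions was lost with the septum left out (edgeR adjusted p = 0.540), while Plk5 (0.00667) and Igfn1 (0.00802) kept theirs. It was lost as well when spots were assigned by their highest marker score in place of clusters (0.486), where the septal fold was -1.37 for Sowaha and -1.41 for Plk5. The call for Igfn1 was lost with marker scores (0.112) and without the immune-gene cluster of the cortex (0.132). Leaving out single sections ended the call for Plk5 in 2 of 4 cases (without rNLS8 replicate 2, 0.108, and without control replicate 2, 0.151). It ended that for Sowaha in 3 (without rNLS8 replicate 1, 0.323, rNLS8 replicate 2, 0.108, and control replicate 1, 0.0654) and that for Igfn1 in 3 (without rNLS8 replicate 1, 0.491, rNLS8 replicate 2, 0.252, and control replicate 2, 0.194).

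Within the cortex, 3 clusters were led by upper-layer, layer 5 and layer 6 markers, and the layer 6 cluster held only 46 spots in rNLS8 replicate 2. Igfn1 in the upper-layer cluster had 7.23 and 10.2 CPM in rNLS8 sections against 103 and 133 CPM in control sections (log2 fold change -3.79, SE 0.29), and in the layer 5 cluster 11.9 and 11.4 CPM against 58.0 and 41.1 CPM (-2.10, SE 0.29). Plk5 likewise had 25.1 and 17.1 CPM against 167 and 149 CPM in the upper-layer cluster (-2.84, SE 0.24) and 21.0 and 20.2 CPM against 76.1 and 47.1 CPM in layer 5 (-1.59, SE 0.28). For both genes the upper-layer cluster lay above the other 2 clusters in both control sections. In rNLS8 sections the upper-layer values of Igfn1 lay below those of layer 5, and those of Plk5 lay on either side of layer 5. Pdrg1 was at 392 and 538 CPM in the upper-layer cluster of rNLS8 sections against 95.5 and 103 CPM in control sections (2.23, SE 0.21), with folds of 1.71 in layer 5 and 1.67 in layer 6. Agmat had 0 UMI in all 3 clusters of both rNLS8 sections. Control sections had 22 and 19 UMI in the upper-layer and 18 and 9 UMI in the layer 5 cluster. With 0 read as 3 counts per section and the control counts taken as exact, that is at least 6.22-fold and 4.62-fold lower. The 2 and 7 cortical UMI of Agmat in rNLS8 sections thus all lay in the immune-gene cluster. The differences between layers were not tested.

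**Figure D5:**
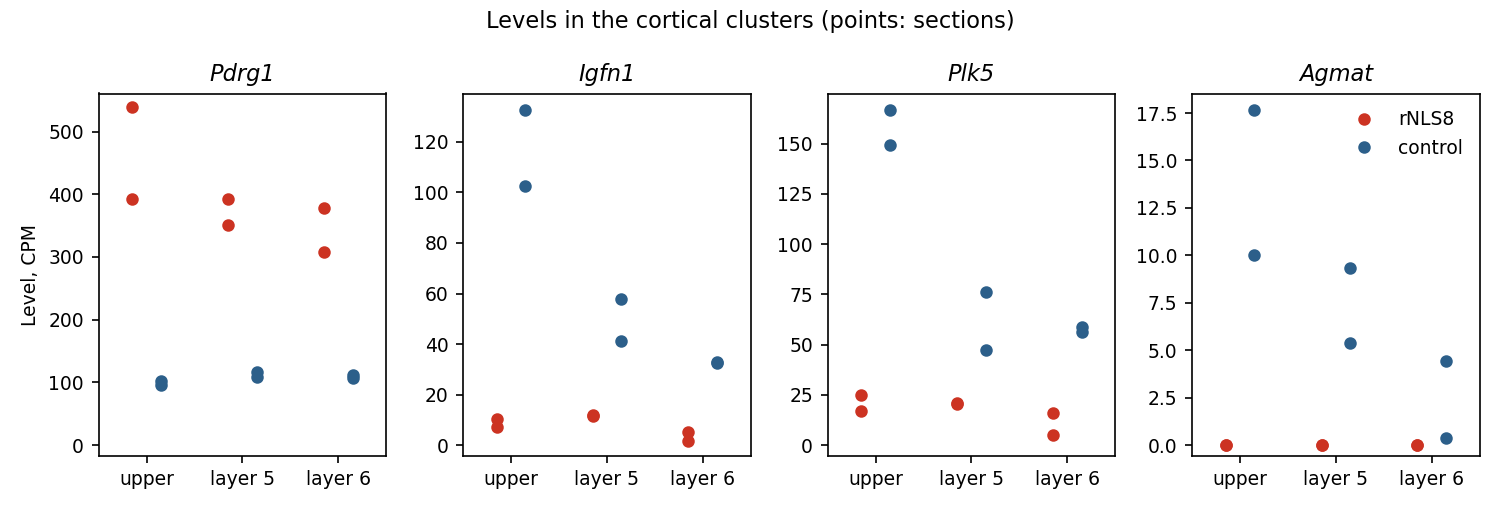
Level in CPM of Pdrg1, Igfn1, Plk5 and Agmat in the 3 layer clusters of the cortex, with 1 point per section, rNLS8 in red on the left and control in blue on the right. Igfn1 and Plk5 are highest in the upper-layer cluster of control sections, while in rNLS8 sections the upper-layer values lie below (Igfn1) or on either side of (Plk5) those of layer 5, and Agmat is at 0 in rNLS8 sections.

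The genes whose level followed each member most closely, up to 3 for each, over the 28 sums of a section and region were ranked by Pearson correlation over 13218 genes. These sums share sections and depth and both groups, and the correlations are a description. Pdrg1 was followed by Tardbp (r = 0.967), Cst7 (0.917), a protease inhibitor of activated microglia, and Cxcl10 (0.911), a chemokine. Tardbp, the gene symbol of TDP-43, had 0 CPM in both control sections and 6.80 and 7.40 CPM in rNLS8 sections. Whether its probes capture the mouse gene or the human transgene is not given. The 0 CPM is therefore not read as absence of the mouse gene. Plk5 was followed by the presynaptic scaffold gene Erc2 (0.938), Negr1 and Ctxn1, Igfn1 by Nrn1 (0.883), which encodes neuritin, Sept5 and Pknox2, and Sowaha by the kinase gene Dgkb (0.903), Bbs2 and Prkar2b. Tmem200b was followed by Actn1 (0.861), Pmepa1 and Rnf103, Muc3a by 5730409E04Rik (0.890), Tsnax and Prkcb, and Stac2 by Efhd2 (0.836) and Palm3. For the rarely captured members the leading genes were Setd7 (0.849) and Tsnax for Irgc1, Purb (0.800), Wdr13 and Lrrc4 for Agmat, and Samd3 (0.814), Pkig and Gnb1 for Qrfpr.

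The authors' deposited table scores the spatial clustering of each gene within a section as Moran's I, where 0 means no pattern. For Igfn1 the authors' deposited table gives 0.0601 and 0.0395 in rNLS8 sections against 0.106 and 0.127 in control sections, so both rNLS8 values are lower. For Pdrg1 the authors' deposited table gives 0.0920 and 0.0854 in rNLS8 sections against 0.0688 and 0.0527 in control sections, both higher. In the authors' deposited table Igfn1 had a UMI in 222 and 133 spots of rNLS8 sections against 643 and 656 of control sections, and Pdrg1 in 2714 and 2332 spots against 1468 and 1618. How far the score follows the number of spots with a UMI was not tested, so these values are not read as a change of pattern.

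The members' relatives and pathway partners, 11 lists with 63 tested genes, had 0 calls by edgeR in whole sections. Over all 13444 genes edgeR called 0 as well, DESeq2 called 519, and the unadjusted edgeR p was under 0.05 for 2093. Of the 63, 15 (23.8%) had both rNLS8 sections above both control sections and 16 (25.4%) both below, against the 27.1% and 25.1% of all genes. The 11 tested partners of Pdrg1 in the R2TP and prefoldin-like complex had a median log2 fold change of 0.01. The largest of them were Tti1, a subunit of the kinase-stabilizing TTT complex (0.43), and Uri1, the scaffold of the prefoldin-like module (0.23). Canonical prefoldin subunits included Vbp1 at -0.31 and Pfdn4 at 0.20.

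The 11 tested STAC adaptors and L-type channel subunits had a median of -0.26. Stac was at -0.61 (SE 0.51) with overlapping groups, and the auxiliary subunit gene Cacna2d3 at -0.73 (SE 0.23). The closest relatives of Plk5 were Plk2, at -0.35, and Plk3, at 0.25, each an activity-regulated kinase gene in neurons. Among 12 polyamine genes Arg2, a mitochondrial arginase, was at -1.03 (SE 0.76) and Sat1, which acetylates polyamines, at 0.86 (SE 0.36). The groups of Arg2 overlapped, with 36 and 5 UMI in rNLS8 sections against 16 and 54 UMI in control sections. Among 5 genes of RFamide signalling Npffr1 was at -0.91 (SE 0.54) and Kiss1r at -0.49 (SE 0.30). In the SOWAH family Sowahb was at -0.52 and Sowahc at 0.22, and Tmem200a was at -0.11. Of the muscle relatives of Igfn1, Mybpc2 was at 1.61 on 18 and 14 UMI in rNLS8 sections against 4 and 5 UMI in control sections. Of 10 mucins, 0 passed the count filter.

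Most tested genes in the list around Irgc1 (immunity-related GTPases and guanylate-binding proteins) had a log2 fold change opposite in sign to its own. Of 7 tested, 4 had a log2 fold change of 1 or more (2.74% of all genes) and the median was 1.26, against -2.90 for Irgc1. Gbp2, Gbp3 and Gbp7 are guanylate-binding proteins, a separate GTPase family. Among the immunity-related GTPases, Igtp was at 1.29 and Irgm2 at 0.95, with Irgm1 and Irgq given below. Gbp3, an interferon-inducible GTPase, had 31.1 and 52.8 CPM in rNLS8 sections against 14.5 and 7.65 CPM in control sections (1.93), and Irgm1 4.49 and 7.67 CPM against 1.77 and 1.78 CPM (1.77). Neither passed over all genes by edgeR (adjusted p = 0.173 for both). Gbp2 overlapped between groups, and Irgq, with 300.2 and 314 CPM in rNLS8 sections against 446 and 357 CPM in control sections (-0.39), was lower like Irgc1. Gbp2, Gbp7, Igtp, Irgm2 and Irgq were chosen for mention after their values were seen.

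The members lie on 8 chromosomes. Of the 20 genes next to them, 1 on each side, 19 were tested, and 6 were apart between groups in their member's direction, where 27.1% of all genes were above and 25.1% below. Their median absolute log2 fold change was 0.33 and the range -0.97 to 1.28. Only Anxa5, beside Qrfpr on chromosome 3, reached 1 in either direction, at 68.9 and 77.7 CPM in rNLS8 sections against 23.2 and 37.1 CPM in control sections, opposite to Qrfpr. Beside Pdrg1, Ttll9 was at -0.13 and Xkr7 at 0.28, and beside Igfn1, Pkp1 was at -0.33 and Ascl5 at -0.79.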

How the data were processed

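Visium FFPE sections were analysed from the deposited matrices, which hold raw counts (UMI of each gene at each spot), made by the authors with Space Ranger 2.1.0 per the file headers, on mm10 per the submitters' processing notes. The probe set is not given in the sources used here. Moran's I is a score deposited by the authors for each gene and section. The deposited positions and gene names were read as given, and image scale factors were not used.

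Spots with at least 500 UMI were kept (3031 and 2655 in rNLS8, 3810 and 3306 in control sections). Barcodes mark array positions, and 1827 occur in all 4 sections. Clusters came from Pearson residuals within each section, 2000 variable genes without response genes, 30 components, 15 neighbours and Leiden resolution 1 (scanpy 1.11.5, leidenalg 0.10.2), and were named from region markers. A cluster of low-count spots (14.0 and 21.3% of spots in rNLS8, 28.6 and 33.1% in control sections), basal forebrain, ependyma and unnamed clusters were outside the 7 regions, which needed at least 50 spots per section. No doublet caller was run. Chosen after seeing the data were the residuals, the removal of response genes and keeping the immune-gene cluster in the cortex.

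UMI summed per section and region were fitted with edgeR 4.0.16 (R 4.3.3), trimmed-mean scaling (within each region, so levels compare across regions only roughly), its count filter, quasi-likelihood tests, Benjamini-Hochberg adjustment over all genes tested and a threshold of 0.05. SE and intervals derive from the test's F value. DESeq2 1.42.0, other scalings and filters, replicate blocks, other region definitions and left-out sections were alternatives. Scripts were tested on simulated data. The members, lists and markers were chosen with earlier results of these data known. Named genes were the members, the 2 largest folds of each list, the 3 most correlated genes per member and the nearest genes. Sections of one group differed by more than counting error (chi-square per degree of freedom 18.5 in rNLS8, 46.2 in control). Deviations of sections with the same replicate number correlated at -0.11. With 2 sections per group this cannot settle whether the numbers pair sections. In both groups replicate 1 is the section labelled female and replicate 2 the one labelled male. A few genes that the naming rule selects are not reported here.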

Additional observations from a re-analysis of the deposited data

Results flagged for a closer look

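For Plk5 the rNLS8 effect differed between cortical and other spots (log2 difference -0.88, edgeR adjusted p = 0.0109). Over the 7 regions the edgeR interaction test passed for Plk5 (adjusted p = 0.00198), Sowaha (adjusted p = 0.00494) and Igfn1 (adjusted p = 0.0254), with 4 sections behind each value. The immune-gene cluster, the septum and single sections that bear on these calls are given with the results.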

How the results depend on the processing

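Each member kept its direction in whole sections under every alternative run, and so did the regional values past the count filter except in the septum, where Plk5 turned to 0.31 without control replicate 1 and Stac2 to -0.13 without rNLS8 replicate 2 and -0.37 without control replicate 1. Of the cortex minus other differences that did not pass, those of Qrfpr, Sowaha, Stac2 and Tmem200b changed sign under at least 1 alternative. In whole sections 9 of the 10 members had a log2 fold change of 1 or more in size, and 9 or 10 under the alternatives. With the same mix of regions in each section, Tmem200b moved most, from -1.43 to -1.19. Igfn1 (-2.55) and Agmat (-2.29) became larger in size and the other members smaller, among them Sowaha (-1.42) and Plk5 (-1.55). Of the 51 regional values past the filter 41 reached that size, and 40 to 45 did with plain CPM or with single sections left out. With regions from marker scores 40 did, of fewer values, since these give no astrocyte-rich surface. Genes called for cortex minus other numbered 47 and became 254 with no filter beyond 1 UMI, 20 by DESeq2's likelihood ratio test, 29 with regions from marker scores, 0 without the immune-gene cluster, and 17 to 584 with single sections left out. Genes called over all regions numbered 142 and became 503 with no filter, 256 at Leiden resolution 0.5, 32 with marker scores, 86 without the immune-gene cluster and 14 to 190 with single sections left out. With the replicate number as a block in place of the section, both counts were 0. That fit does not take out what the sums of a section share, and the cause of the loss was not tested. In whole sections the replicate block gave 78 called genes and the crossed replicate block 216, against 0 without a block and 2 to 1839 with single sections left out. Of the gene lists, edgeR called 0 genes, against 2 with no filter (Gbp3, Irgm1), 3 by DESeq2 (with Igtp), 1 with the crossed replicate block (Gbp3) and 0 to 6 with single sections left out. The 3 without rNLS8 replicate 1 were Gbp3, Gbp2 and Irgm1, and the 6 without control replicate 2 were Speg, Cacnb4, Azin2, Irgq, Eef1a1 and Vbp1. Plk5 kept its call for cortex minus other in 9 of 12 alternatives and over all regions in 9 of 12, Sowaha over all regions in 6 of 12 and Igfn1 in 5 of 11. Pdrg1 passed for cortex minus other in 2 of 12 (no filter, without rNLS8 replicate 1), Igfn1 in 4 of 12, Agmat in 2 of 11, and Sowaha (without rNLS8 replicate 2) and Stac2 (without rNLS8 replicate 1) in 1 of 12 each. Stac2 passed over all regions in 2 of 12 (no filter, without control replicate 1). Where no cause is given, the cause was not tested. Depth limits Irgc1, Agmat and Qrfpr outside the cortex. Counting bounds cover the counting error of the rNLS8 zeros only, with the control counts taken as exact.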

Other observations

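Outside the 7 regions, Pdrg1 in the low-count spots had 318 and 407 CPM in rNLS8 sections against 105 and 113 CPM in control sections (log2 fold change 1.74), and Tmem200b 27.9 and 21.4 CPM against 115 and 92.2 CPM (-2.07). In the ependyma Pdrg1 had 258 and 225 CPM in rNLS8 sections against 152 and 154 CPM in control sections (0.69), a smaller fold than in any of the 7 regions, from 69 and 28 spots in rNLS8 sections and 84 and 33 in control sections. In the basal forebrain, with 19 spots in rNLS8 replicate 2, Pdrg1 had 261 and 285 CPM in rNLS8 sections against 119 and 118 CPM in control sections (1.20), and Sowaha 122 and 82.6 CPM against 185 and 212 CPM (-0.82). These values were not tested.

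Sowaha and Stac2 ran opposite to each other over the 28 sums of a section and region (Pearson r = -0.80, as a description), and Pdrg1 and Sowaha likewise (-0.83). Igfn1 and Irgc1 (0.76), Igfn1 and Plk5 (0.75) and Sowaha and Muc3a (0.80) ran together. The sums share sections, depth and the group difference on which the genes were chosen.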
